A study of Solanum lycopersicum with 18 samples.

Results

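Plant proteases are described here as 79 tomato (Solanum lycopersicum) genes, chosen by their written description out of the 5295 features of the authors' deposited table. A gene was taken when its description named a subtilisin, a cysteine, aspartic or metallo protease, a serine carboxypeptidase or a cathepsin, and rows naming an inhibitor were left out. The rule also held the words cucumisin and aminopeptidase, which no feature of the table carried. The rule read no measured value, but it was set with earlier results of these data known. By catalytic type the 79 genes were 30 subtilases, 20 serine carboxypeptidases, 19 aspartic proteases, 9 cysteine proteases and 1 metalloprotease. The protein domain printed beside each description, which the rule did not read, matched the class of all 79 genes. It was peptidase family S8 for the 30 subtilases, S10 for the 20 serine carboxypeptidases and A1 for the 19 aspartic proteases. All 9 cysteine proteases carried family C1A, and the matrix metalloproteinase carried M10A and M12B.

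The study introduced a system for switching on the snapdragon transcription factors Rosea1, of the MYB family, and Delila, of the bHLH family, which control anthocyanin pigments, with the synthetic glucocorticoid dexamethasone (DEX). Messenger RNA of callus, an undifferentiated tissue grown in culture, and of roots was sequenced without induction and 3 h and 24 h after 10 mg/L DEX, with 3 libraries in each of the 6 groups. The labels describe the controls as not induced, do not say when they were sampled, and list no group given DEX without the transgenes, so effects of DEX or handling and those of the regulators cannot be told apart. The sources used here give neither the promoter of the system nor the number of transgenic lines. Each of the 4 comparisons is a fold change that the authors computed, read here as induced against uninduced libraries of one tissue, since both transgenes stood above 1 throughout. The table holds features that the authors selected for a false discovery rate of 0.05 together with a fold of 2 in at least 1 comparison. Values per library and p-values were not analysed here, so a fold has no error, depth or test, and the levels of tissue markers could not be checked. Higher and lower mean a fold of at least 2. Counts cover only the proteases that passed the authors' selection, which are not the whole families.

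Proteases cut peptide bonds, and plants carry large families of them that are mostly named by the residue or metal in the active site. Subtilases are serine proteases that are made as inactive precursors and mostly secreted to the cell wall, where they process peptide hormones and wall proteins or act in defence. Papain-like cysteine proteases and pepsin-like aspartic proteases work in vacuoles and outside the cell, in protein turnover, senescence, cell death and immunity. Serine carboxypeptidases trim amino acids from the carboxyl end of proteins, and some relatives in Arabidopsis and other plants have become acyltransferases that move acyl groups from glucose esters onto phenolic compounds.

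The protease genes were mostly below the uninduced level, most clearly in roots 3 h after DEX. There 54 of 79 (68.4%) were lower and 10 (12.7%) higher, while 44.6% of all features were lower and 31.3% higher, and the median log2 fold was -1.43 against -0.58 for all features. With the column centred on its median, 34 proteases (43.0%) were lower and 13 (16.5%) higher, against 25.4% and 38.4% of all features, so that 27.7% of the called proteases were higher instead of 15.6%. In roots at 24 h 21 proteases (26.6%) were lower and 8 (10.1%) higher, with backgrounds of 21.9% and 11.7%, and the median log2 fold was -0.58 against -0.13. With that column centred 18 (22.8%) were lower and 9 (11.4%) higher, beside 19.0% and 14.1%. In callus at 3 h 21 (26.6%) were lower and 15 (19.0%) higher, beside 23.4% and 27.8% of all features. In callus at 24 h the lower ones numbered 31 (39.2%) and the higher ones 14 (17.7%), beside 21.5% and 18.0% of all features. Shares of higher proteases at callus 24 h and of either direction at root 24 h were thus near the background, and those of lower ones at callus 24 h and root 3 h were above it. With no values per library, none of these differences could be tested. The threshold cuts through a dense range: in roots at 24 h 3 proteases had a fold of 2 to 2.2 in size and 7 had one of 1.8 to 2, and in the other comparisons 3 to 6 lay just inside and 2 to 3 just outside.

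**Figure D1:**
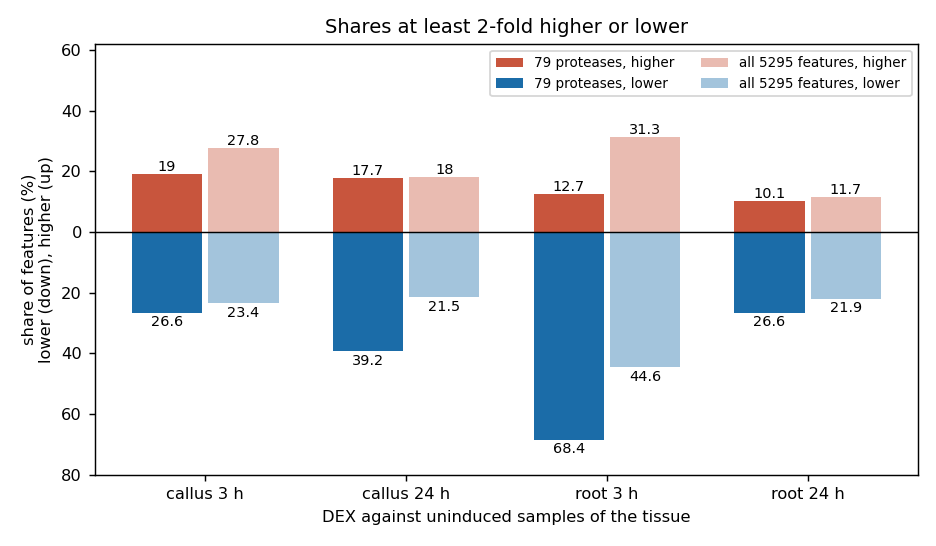
Bars give the share of features in percent that were at least 2-fold higher (red, up) or lower (blue, down) after DEX, for the 79 proteases (full colour) and all 5295 features (pale) in each comparison. At root 3 h 68.4% of proteases were lower against 44.6% of all features, the widest gap in the plot; the bars carry no error because there are no values per library.

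Other transcripts of these libraries moved in the same comparisons, and their part in the protease result was not tested. Markers of green tissue were 46 features named for photosystems, chlorophyll a-b binding proteins or the small Rubisco subunit. At root 3 h 42 of them (91.3%) were lower and 0 higher, beside 44.6% and 31.3% of all features. At root 24 h 0 were lower and 33 (71.7%) higher, beside 21.9% and 11.7%. With the root columns centred 33 (71.7%) were lower at 3 h and 38 (82.6%) higher at 24 h, beside 25.4% and 14.1%. In callus the same 46 had 21 (45.7%) lower and 1 (2.17%) higher at 3 h, beside 23.4% and 27.8%. At callus 24 h 2 (4.35%) were lower and 16 (34.8%) higher, beside 21.5% and 18.0%. A further 60 features had the words histone or cyclin at a word start in their description and were used as markers of dividing cells. This match also takes in longer names that begin with these words, so the list can be mixed. Of the 60, 52 were lower at root 3 h, 32 at root 24 h, 8 at callus 3 h and 27 at callus 24 h, and 3 to 6 were higher. Of 3 root cap features 3 were lower at root 24 h and 2 at root 3 h, beside 21.9% and 44.6% of all features. In callus 2 were lower at 24 h, beside 21.5%. At callus 3 h 0 were lower and 1 was higher, beside 23.4% and 27.8%. In tissue RNA, fewer cells of a type and less RNA per cell cannot be told apart.

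Subtilases, the largest class, held both the highest and the lowest protease fold of each root comparison. Of the 30 genes, 21 (70.0%) were lower and 3 higher at root 3 h, beside 44.6% and 31.3% of all features. With that column centred 12 (40.0%) were lower and 3 higher, beside 25.4% and 38.4%. At root 24 h 7 (23.3%) were lower and 4 (13.3%) higher, near the background of 21.9% and 11.7%. At callus 3 h 7 (23.3%) were lower and 7 (23.3%) higher, beside 23.4% and 27.8%. At callus 24 h 11 (36.7%) were lower and 6 of the 30 higher, beside 21.5% and 18.0%. Their median log2 folds in roots, -1.40 at 3 h and -0.57 at 24 h, lay close to that of all 79 proteases, and the callus medians were -0.01 and 0.00.

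The subtilisin-like protease Solyc07g056170 was at least 2-fold higher in each of the 4 comparisons, of which those of a tissue share the uninduced samples. The authors' deposited table gave it a fold of 13.2 in callus at 3 h, 6.14 at callus 24 h, 36.2 at root 3 h and 17.8 at root 24 h. It ranked 49th from the top of all 5295 features at root 3 h. Dividing the later by the earlier value of the authors' deposited table gave 0.466 for callus and 0.493 for roots, so it was lower at 24 h in both tissues.

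Solyc01g087780, another subtilisin-like protease, had the widest swing. In roots the authors' deposited table listed it as 8.89-fold lower at 3 h and 60.5-fold higher at 24 h, so that the later value was 538 times the earlier one. Its callus folds in the authors' deposited table were 5.55 (3 h) and 4.78 (24 h), without such a swing. The adjacent pair Solyc08g079840 and Solyc08g079850 followed the same course in roots. In the authors' deposited table Solyc08g079840 was 3.32-fold lower and then 15.9-fold higher. Its neighbour Solyc08g079850 stood at 3.32-fold lower and then at 21.6-fold higher, per the authors' deposited table. Both are listed at a fold of exactly 1 in callus at both times.

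Opposite cases lay among the same class. Solyc08g007610 was 8.35-fold lower at root 3 h and 27.8-fold lower at root 24 h in the authors' deposited table, the lowest protease of the later time, and is listed at exactly 1 in callus. Solyc08g007690 was the lowest protease at root 3 h, at 18.7-fold lower, and stood at 6.06-fold lower at root 24 h in the authors' deposited table. In callus it was listed at exactly 1 at 3 h and 4.13-fold higher at 24 h in the authors' deposited table, which puts its callus and root calls at 24 h in opposite directions. The authors' deposited table has Solyc04g078740 lower throughout, by 2.46-fold (3 h) and 2.27-fold (24 h) in callus and by 2.62-fold and 3.80-fold in roots. With the root 3 h column centred its log2 fold there was -0.81, short of 2-fold.

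Further subtilases were higher in callus at 3 h. Solyc01g006660 stood 8.52-fold higher there and 3.10-fold lower at root 3 h, and Solyc02g092670 stood 3.79-fold higher in callus with -1.42 as its signed fold in roots, in the authors' deposited table. Solyc06g062950 was higher in both tissues at 3 h, by 3.51-fold in callus and 2.13-fold in roots, and under 2-fold at the later time, in the authors' deposited table. Solyc02g071560 was 4.39-fold higher at root 3 h and 2.14-fold higher at callus 24 h in the authors' deposited table. On the lower side in callus, Solyc01g087740 stood at 6.14-fold, Solyc02g021220 at 5.02-fold, Solyc03g081260 at 4.45-fold and Solyc02g068280 at 3.90-fold lower at 24 h in the authors' deposited table. The first of these was also lower in roots, by 2.08-fold at 3 h and 2.04-fold at 24 h per the authors' deposited table, but short of 2-fold with either root column centred.

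**Figure D2:**
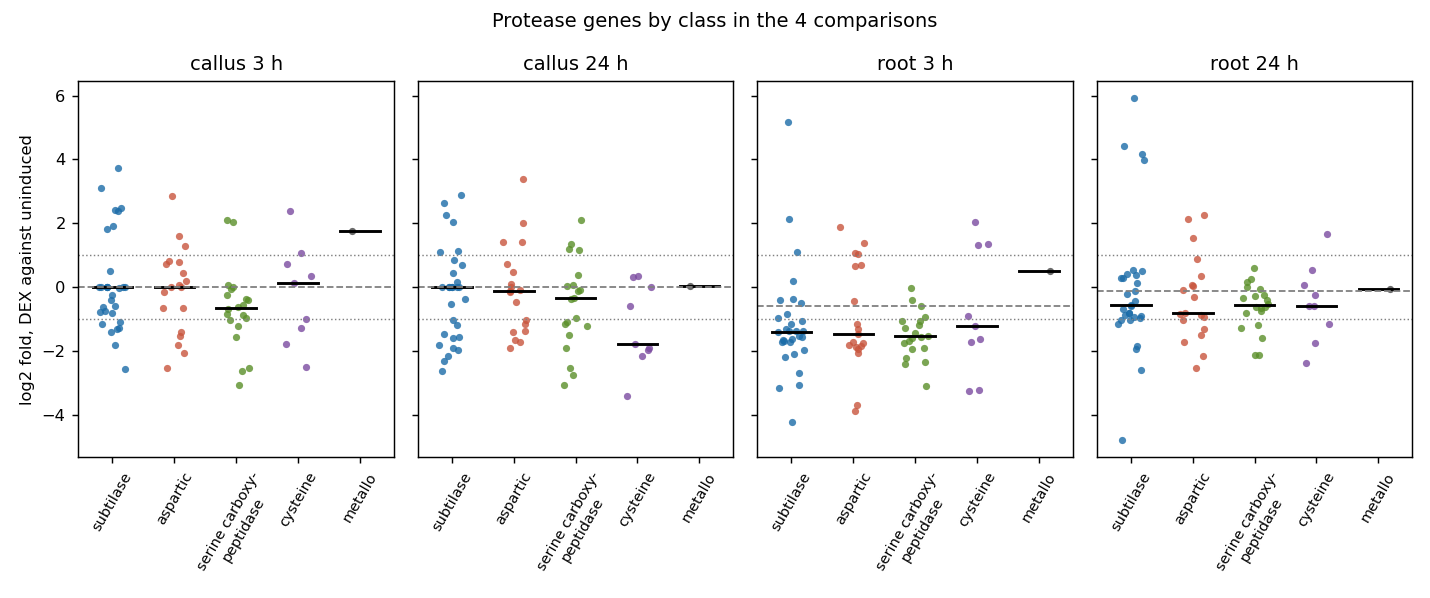
Each point is 1 protease gene, placed by its log2 fold after DEX against uninduced tissue; black lines are class medians, the dashed line is the median of all features and the dotted lines mark 2-fold. At root 3 h the median lay at -1.40 for subtilases, -1.48 for aspartic proteases and -1.55 for serine carboxypeptidases, below the -0.58 of all features.

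Some of the protease genes have identifiers close to one another. Numbers in tomato gene identifiers follow the order of genes along a chromosome. Of the 78 proteases on a numbered chromosome 26 fell into 10 runs whose identifiers were at most 100 apart. Other genes can lie between the members of a run, and the same share over all features was not counted. Reads from near-identical neighbours can be divided between copies in ways that the sources used here do not describe, so single values within a run are uncertain. The longest run was of 6 subtilases on chromosome 1, from Solyc01g087740 to Solyc01g087840. All 6 were lower at root 3 h, beside 44.6% of all features, with log2 folds from -3.15 to -1.05, and 3 of them stayed at least 2-fold lower with the column centred, but at root 24 h they ranged from -1.03 to 5.92. In callus at 24 h 3 of the 6 were higher and 1 lower, among them Solyc01g087800, the highest subtilase of that comparison, to which the authors' deposited table gave a fold of 7.34. Solyc01g087790 of the same run was 5.29-fold higher at callus 3 h and 4.27-fold lower at root 3 h in the authors' deposited table.

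On chromosome 8 a run of 4 subtilases from Solyc08g007610 to Solyc08g007690 was lower in all its members at root 3 h, with log2 folds from -4.22 to -1.15, and in 3 of 4 at root 24 h. With the root 3 h column centred 3 of the 4 were lower there. Its member Solyc08g007680 was also 5.99-fold lower at callus 3 h in the authors' deposited table. The pair that was higher at root 24 h, Solyc08g079840 and Solyc08g079850, lies on the same chromosome before the pair Solyc08g079970 and Solyc08g079980, of which neither was 2-fold apart at root 24 h.

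**Figure D3:**
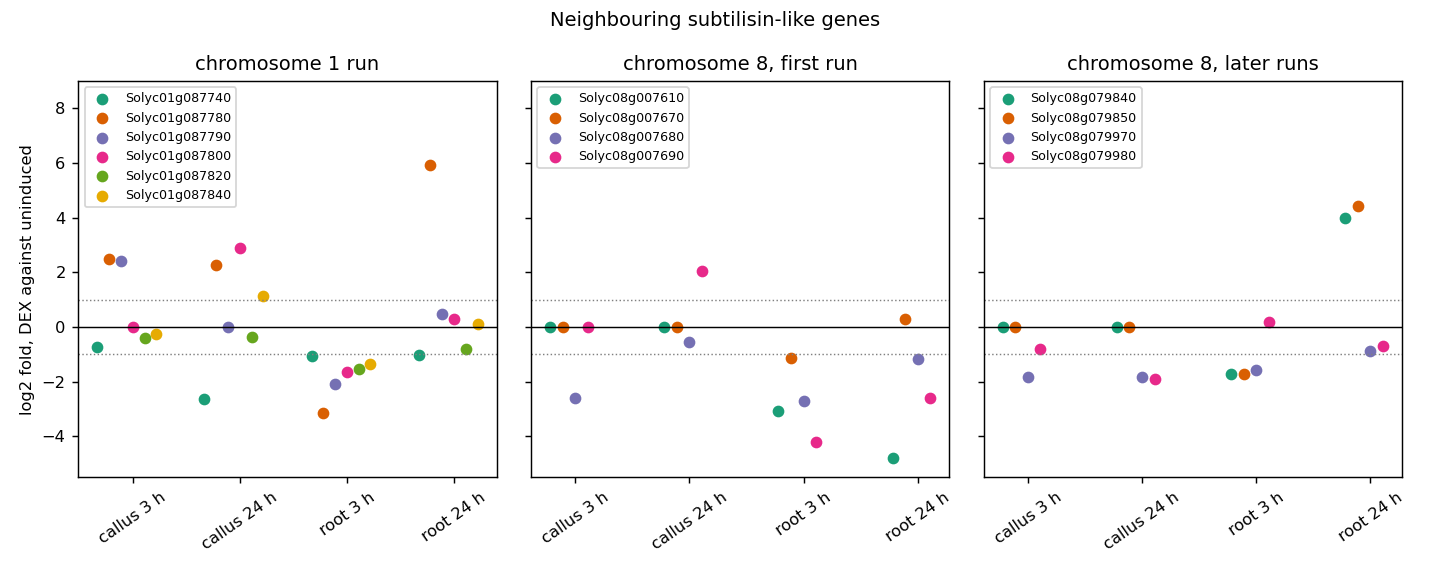
Points show the log2 fold of each subtilisin-like gene (colour) in the 4 comparisons for the run on chromosome 1 and the runs on chromosome 8; dotted lines mark 2-fold. All 6 genes of the chromosome 1 run lay between -3.15 and -1.05 at root 3 h, whereas 1 stood at 5.92 and the others near or below the uninduced level at root 24 h.

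Aspartic proteases, of which 15 of 19 are named after nepenthesin, the digestive enzyme of pitcher plants, held genes with large folds in both directions. At root 3 h 12 (63.2%) were lower and 4 (21.1%) higher (centred, 9 and 6), beside 44.6% and 31.3% of all features. At root 24 h 6 (31.6%) were lower and 3 (15.8%) higher, beside 21.9% and 11.7%. At callus 3 h 5 (26.3%) were lower and 3 (15.8%) higher, beside 23.4% and 27.8%. At callus 24 h 7 (36.8%) were lower and 4 (21.1%) higher, beside 21.5% and 18.0%. The genes Solyc04g076190 and Solyc12g087940 were lower in each comparison. Per the authors' deposited table, Solyc04g076190 was 2.68-fold lower at callus 3 h, 3.16-fold at callus 24 h, 14.9-fold at root 3 h and 5.81-fold at root 24 h. For Solyc12g087940 the reductions in the authors' deposited table were 4.19-fold (3 h) and 3.75-fold (24 h) in callus, then 13.1-fold and 2.84-fold for the same times in roots. Both were thus further below the uninduced level at 3 h than at 24 h in roots, which was not so for Solyc04g076190 in callus.

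A few aspartic proteases stood above the uninduced level. The authors' deposited table gave Solyc07g045100 as 7.17-fold higher at callus 3 h, 2.64-fold at callus 24 h and 3.68-fold at root 3 h, with a signed fold of 1.85 at root 24 h. Solyc06g069220 was 3.00-fold and 4.02-fold higher in callus and 4.81-fold higher at root 24 h, after 1.63 at root 3 h, in the authors' deposited table. Solyc08g068870 was listed at exactly 1 at callus 3 h and then at 10.4-fold, the highest protease of that comparison, and in roots its signed fold went from -1.36 to 4.39 in the authors' deposited table. Solyc03g119690 was higher at 24 h in both tissues, by 2.67-fold in callus and 2.90-fold in roots, as the authors' deposited table lists it. At root 3 h alone, Solyc02g083460, Solyc02g065050 and the nucellin-like Solyc06g009110 passed 2-fold, with folds of 2.61, 2.08 and 2.04 in the authors' deposited table. The nepenthesin-like Solyc05g056450 had reductions of 5.82-fold at callus 3 h, 3.51-fold at root 3 h and 3.29-fold at root 24 h, from the authors' deposited table. Solyc03g117690 was 3.50-fold lower at callus 3 h and 4.23-fold lower at root 3 h, and Solyc01g096450 was 4.46-fold lower at root 24 h, per the authors' deposited table.

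None of the 20 serine carboxypeptidases was at least 2-fold higher in roots. At 3 h 16 (80.0%) were lower, beside 44.6% of all features lower and 31.3% higher. The highest log2 fold of the class was -0.04, so the whole class lay below the uninduced level. That gene still lay above the median of all features, -0.58. With the column centred 9 (45.0%) were lower and 0 higher, beside 25.4% and 38.4%. At 24 h 5 were lower and the log2 folds ran from -2.14 to 0.58. Callus differed in that 2 were higher and 6 lower at 3 h, and 4 higher and 8 lower at 24 h. The difference between the tissues could not be tested. Solyc02g014830 was the highest of the class in callus at 3 h, at 4.26-fold, and 2.56-fold higher at 24 h, with signed folds of -1.51 and 1.20 in roots, in the authors' deposited table. Solyc01g010710 stood 4.11-fold higher at callus 3 h and 3.01-fold lower at root 3 h in the authors' deposited table.

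The carboxypeptidase Solyc02g078690, described as K10B2.2, was lower in callus at 3 h and higher there at 24 h. The authors' deposited table gave 6.20-fold lower and then 2.23-fold higher in callus, and 3.39-fold and 4.35-fold lower in roots. Solyc05g050770 was the lowest of the class at 3 h in both tissues, at 8.33-fold lower in callus and 8.51-fold lower in roots, in the authors' deposited table. Its callus fold was the same at 24 h to the third decimal, while its signed root fold at 24 h was 1.498 in the authors' deposited table. The neighbour Solyc05g050780 was 3.87-fold and 4.41-fold lower in roots, the lowest of the class at 24 h, in the authors' deposited table. Solyc06g083020 was 6.74-fold lower at callus 24 h, and Solyc12g099160 was 5.83-fold lower in callus at both times, in the authors' deposited table. Solyc01g087970 was 2.93-fold lower at callus 3 h and under 2-fold in the other comparisons of the authors' deposited table. Solyc04g079070 was listed at exactly 1 at callus 3 h, at 4.29-fold higher at callus 24 h and at 5.37-fold lower at root 3 h in the authors' deposited table.

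Cysteine proteases were mostly lower in callus at 24 h, where 5 of 9 (55.6%) were lower and 0 higher and the median log2 fold was -1.77. Of all features 21.5% were lower and 18.0% higher there. At callus 3 h 3 (33.3%) were lower and 2 (22.2%) higher, beside 23.4% and 27.8%. At root 3 h 5 (55.6%) were lower and 3 (33.3%) higher, beside 44.6% and 31.3%. At root 24 h 3 (33.3%) were lower and 1 (11.1%) higher, beside 21.9% and 11.7%. The table describes 8 of the 9 as cathepsin B or like it, a papain-family protease that in Nicotiana benthamiana takes part in the cell death of the defence response, and the ninth as cathepsin F. This ninth gene, Solyc01g110110, was 2.09-fold higher at callus 3 h, 4.08-fold higher at root 3 h and 3.16-fold higher at root 24 h, with 1.24 at callus 24 h, in the authors' deposited table. It had the highest fold of the class in both root comparisons.

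Among the cathepsin B-like genes, Solyc02g077040 was 10.6-fold lower at callus 24 h, the lowest protease of that comparison, and 2.54-fold higher at root 3 h in the authors' deposited table. Solyc03g111730 likewise was 4.47-fold lower at callus 24 h and 2.50-fold higher at root 3 h in the authors' deposited table. Solyc04g082710 was 3.89-fold lower at callus 24 h and 2.22-fold lower at root 24 h in the authors' deposited table. Solyc02g076690 was 9.29-fold lower at root 3 h and had a signed fold of 1.05 at root 24 h in the authors' deposited table. Solyc03g006210 was lower throughout, by 3.42-fold at both times in callus, by 9.60-fold at root 3 h and by 3.40-fold at root 24 h, per the authors' deposited table. Solyc02g076980 was 5.65-fold and 3.77-fold lower in callus and 3.32-fold lower at root 3 h in the authors' deposited table. Solyc12g094700 went from 5.24-fold higher at callus 3 h to exactly 1 at 24 h, and was 3.08-fold and 5.26-fold lower in roots, in the authors' deposited table.

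The matrix metalloproteinase Solyc04g005050, of a family of zinc-dependent proteases that cut proteins outside the cell, was higher in callus at 3 h. The authors' deposited table gave 3.35-fold there, and 1.02, 1.42 and -1.04 as signed folds at callus 24 h, root 3 h and root 24 h. With the root 3 h column centred it passed 2-fold there too.

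Several callus folds have a form that low read numbers can give. A callus fold of exactly 1, or the same fold at both times, was listed for 17 of the 79 proteases (21.5%), against 10.2% of all features and 0 proteases in roots. Of the 17, 6 were at exactly 1 at both times, 7 at one of the times, and 4 carried the same fold at both. Solyc12g094700 and the subtilase Solyc12g088760 shared a fold of 5.238 at callus 3 h in the authors' deposited table with 6 other features, 8 in all, and were both at exactly 1 at 24 h. Without the 17 genes, 12 proteases were higher and 17 lower at callus 3 h, and 10 and 27 at callus 24 h.

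From 3 h to 24 h of induction, root values of the proteases were more often higher than lower at the later time. The value at 24 h was at least 2-fold above that at 3 h for 34 of 79 proteases (43.0%) and at least 2-fold below it for 6 (7.59%), beside 26.0% and 23.0% of all features. With both columns centred the numbers were 23 (29.1%) and 16 (20.3%), beside 16.7% and 35.3%. By class, 13 of 30 subtilases, 10 of 20 serine carboxypeptidases, 8 of 19 aspartic and 3 of 9 cysteine proteases were at least 2-fold above, and 4, 0, 1 and 1 at least 2-fold below. With both columns centred the numbers above and below were 11 and 6 for subtilases, 5 and 1 for serine carboxypeptidases, 5 and 5 for aspartic and 2 and 3 for cysteine proteases. In callus the course was the other way, with 11 proteases (13.9%) above and 21 (26.6%) below, beside 15.0% and 19.8% of all features. Both times share the uninduced samples, which cancel in this ratio. After Solyc01g087780 and the pair on chromosome 8, the serine carboxypeptidase Solyc05g050770 had the highest ratio in roots, at 12.7, followed by the cathepsin B-like Solyc02g076690 at 9.78, computed from the authors' deposited table. The lowest root ratio was that of the subtilase Solyc02g071560 at 0.293, computed from the authors' deposited table.

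**Figure D4:**
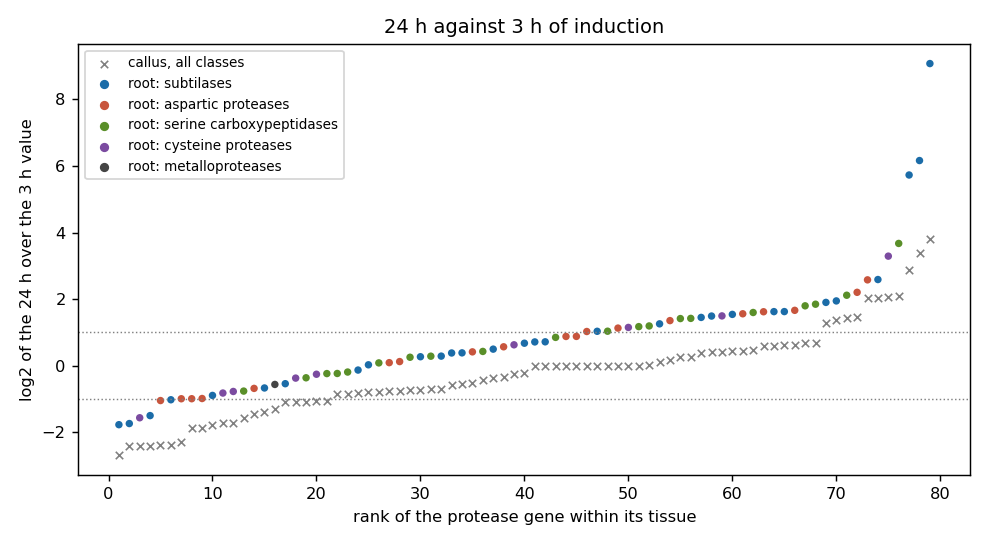
Each protease is placed by rank within its tissue (x axis) and by the log2 of its 24 h value over its 3 h value (y axis), with roots as points coloured by class and callus as grey crosses; dotted lines mark 2-fold. In roots 34 genes lie above the upper line and 6 below the lower one, and in callus 11 and 21.

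Callus and roots have separate uninduced samples and can be set side by side. At 3 h 19 proteases (24.1%, beside 13.7% of all features) were lower in both tissues, which is 90.5% of the 21 lower in callus and 35.2% of the 54 lower in roots. Over all features these shares were 58.6% and 30.8%. Genes higher in both at 3 h numbered 4 (5.06%, beside 15.5% of all features), or 26.7% of the 15 in callus and 40.0% of the 10 in roots, beside 55.9% and 49.7% of all features. They were the subtilases Solyc07g056170 and Solyc06g062950, the aspartic protease Solyc07g045100 and the cathepsin F Solyc01g110110. A further 6 proteases were higher in callus and lower in roots at 3 h (7.59%, beside 2.13% of all features), and 0 went the reverse way (beside 1.53%). The 6 were Solyc01g006660, Solyc01g087780, Solyc01g087790, Solyc01g010710, Solyc12g094700 and the aspartyl protease Solyc08g078670, the last of which was named after its values were seen. Without the proteases of exact or repeated folds, 4 such genes were left.

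At 24 h 13 proteases (16.5%, beside 10.6% of all features) were lower in both tissues, 41.9% of the 31 in callus and 61.9% of the 21 in roots, beside 49.4% and 48.4% for all features. Those higher in both numbered 5 (6.33%, beside 6.52% of all features): Solyc01g087780, Solyc07g056170, Solyc03g119690, Solyc06g069220 and Solyc08g068870. The 2 genes higher in callus and lower in roots (2.53%, beside 1.17% of all features) were Solyc02g078690 and Solyc08g007690, and 0 went the reverse way (beside 0.737%). Without the proteases of exact or repeated folds, to which Solyc08g007690 belongs, 1 such gene was left. Across the 79 genes, which are not independent replicates, Pearson's r between the callus and root log2 folds was 0.44 at 3 h and 0.41 at 24 h, and Spearman's rho 0.36 and 0.43. Over all 5295 features r was 0.53 and 0.56, and rho 0.54 and 0.58. For the 62 proteases without exact or repeated folds, r was 0.51 at 3 h and 0.61 at 24 h, and rho 0.44 and 0.57. Such folds were not left out of the values for all features, and no difference between proteases and all features was tested.

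**Figure D5:**
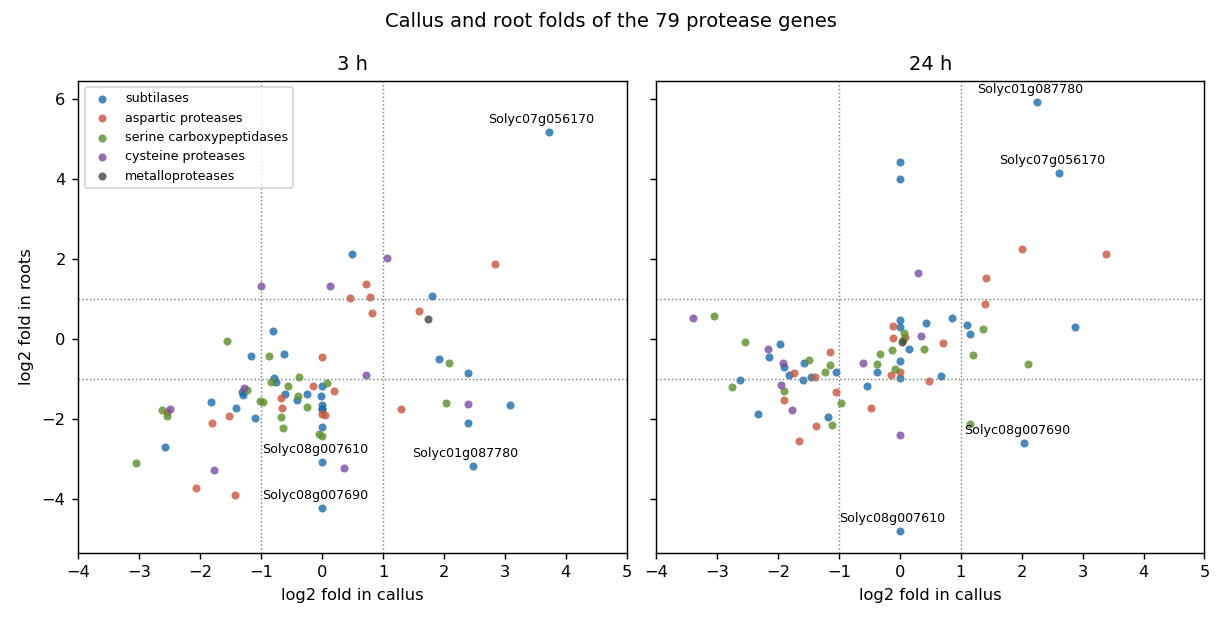
Each point is 1 protease, with its log2 fold in callus on the x axis and in roots on the y axis at 3 h (left) and 24 h (right), coloured by class; dotted lines mark 2-fold. Solyc07g056170 lies far up and to the right in both panels, and at 3 h most points lie below the level of 0 on the y axis, since 54 of 79 were lower in roots.

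Protease inhibitors, named for blocking proteases, were about as often higher as lower at root 3 h. Tomato makes some of them on wounding. The list was matched by words in the descriptions. It also holds inter-alpha-trypsin inhibitor proteins and a family described as protease inhibitor, seed storage and lipid transfer proteins. Of 31 listed inhibitors 11 (35.5%) were higher and 10 (32.3%) lower at root 3 h, beside 31.3% and 44.6% of all features. With the column centred 14 (45.2%) were higher and 4 (12.9%) lower, beside 38.4% and 25.4%. Among the 79 proteases 10 were higher and 54 lower there without centring. At root 24 h 9 were higher and 10 lower, at callus 3 h 10 and 8, and at callus 24 h 7 and 8, so the counts were near balance in each comparison without centring. The highest and lowest inhibitor of each comparison are named, a choice made after their values were seen. At callus 3 h these were the serpin Solyc04g079480 at 13.8-fold higher and the proteinase inhibitor II Solyc03g020040 at 4.24-fold lower, from the authors' deposited table. Both have a form that low read numbers can give. The serpin is listed at exactly 1 at callus 24 h, and Solyc03g020040 has the same fold at both callus times. For callus at 24 h the authors' deposited table had the Kunitz trypsin inhibitors Solyc03g098670, 7.57-fold higher, and Solyc06g072210, 13.0-fold lower, at the ends of the list. The ends at root 3 h were the serpin Solyc04g079450, 14.2-fold higher, and the inhibitor II Solyc11g020960, 33.0-fold lower, per the authors' deposited table. At root 24 h Solyc03g020040 stood at 125-fold higher, after exactly 1 at root 3 h, and another inhibitor II, Solyc03g020080, at 13.0-fold lower, as the authors' deposited table lists them. Of the 9 inhibitors described as Kunitz, 6 (66.7%) were higher and 1 (11.1%) lower at callus 3 h, beside 27.8% and 23.4% of all features. At callus 24 h the numbers were 4 (44.4%) and 2 (22.2%), beside 18.0% and 21.5%. At root 3 h they were 3 (33.3%) and 2 (22.2%), beside 31.3% and 44.6%. With that column centred they were 6 (66.7%) and 0, beside 38.4% and 25.4%. At root 24 h they were 5 (55.6%) and 2 (22.2%), beside 11.7% and 21.9%.

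Other parts of protein turnover had few genes in the table. For comparison, 31.3% of all features were higher and 44.6% lower at root 3 h (centred, 38.4% and 25.4%). At root 24 h these shares were 11.7% and 21.9%, at callus 3 h 27.8% and 23.4%, and at callus 24 h 18.0% and 21.5%. Of 5 legumains and metacaspases, caspase-like cysteine proteases of vacuoles and cell death, 4 were higher and 0 lower at callus 3 h, 2 and 1 at callus 24 h, 2 and 2 at root 3 h (centred, 3 and 0), and 0 and 2 at root 24 h. The vacuolar-processing enzyme Solyc08g079160 was 5.24-fold and 4.13-fold higher in callus and 2.50-fold and 3.75-fold lower in roots, at 3 h and 24 h, in the authors' deposited table. The metacaspase Solyc01g105320, among the 4 higher at callus 3 h, had the fold of 5.238 that 8 features shared there. Solyc08g079160 lay next to that value, a form that low read numbers can give, so these callus values are uncertain. Metacaspase 7, Solyc10g081300, was 2.23-fold higher at callus 3 h and 12.5-fold lower at callus 24 h in the authors' deposited table. Of 7 organelle proteases, such as the FtsH and Clp proteases of plastids and mitochondria, 4 (57.1%) were higher and 1 (14.3%) lower at root 3 h. With that column centred 6 were higher and 1 lower. At root 24 h 1 (14.3%) was higher and 0 lower. In callus 1 (14.3%) was higher and 1 (14.3%) lower at 3 h, and 2 (28.6%) higher and 1 (14.3%) lower at 24 h. The list of proteasome subunits and that of autophagy genes each held 1 feature, and each was higher at root 3 h and under 2-fold elsewhere. Ubiquitin hydrolases had 0 features in the table.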

How the data were processed

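Stranded libraries of polyadenylated RNA were sequenced from both ends of each fragment on an Illumina HiSeq2500, per the labels' protocols. The submitters' processing notes name CASAVA 1.8.1, and the sources used here do not give the aligner, genome build, counting or normalization. Per the file headers, the authors deposited for each of 4 comparisons a signed fold from CLC bio software, below 0 for a reduction, and the same fold as a linear ratio, which matched to 5.0e-10. Log10 columns were not used. A second file with the same folds was not used. Depth, errors and p-values were not analysed here, so the count model planned for values per library was not used.

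Log2 folds, calls at 2-fold, counts, medians and 24 h to 3 h ratios were computed with Python 3.11.15, numpy 2.4.6 and pandas 2.3.3, tested on simulated data, and plotted with matplotlib 3.10.9. Centring subtracts the median log2 fold of all features of a comparison. Other lists were matched by words at word starts, and the marker word xylem matched 0 features. Genes were named by a rule: up to 10 highest and 10 lowest proteases per comparison, those called alike in all 4, the 6 with the widest opposite calls, and the extremes of each class. The members, lists and alternatives were chosen with earlier results of these data known.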

Additional observations from a re-analysis of the deposited data

How the results depend on the processing

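The direction of the protease counts, more lower than higher, held in each of the 4 comparisons at 2-fold, at 1.5-fold, with centred columns and without serine carboxypeptidases or genes of exact or repeated folds. It did not hold for callus at 3 h at 4-fold, with 9 higher and 7 lower, nor with wider words for the members, with 26 higher and 24 lower of 111. The number of proteases called fell at 4-fold from 36 to 16 in callus at 3 h, from 45 to 15 in callus at 24 h, from 64 to 18 in roots at 3 h and from 29 to 13 in roots at 24 h, as a stricter threshold must. At 1.5-fold the root 24 h count was 46, of which 9 were higher and 37 lower. Centring moved the median log2 fold of the proteases from -1.43 to -0.84 at root 3 h and from -0.58 to -0.45 at root 24 h, and left callus as it was because the callus medians of all features are 0.00. At root 3 h, wider words gave 24 higher and 64 lower. Leaving out the genes of exact or repeated folds moved the callus medians from -0.24 to -0.48 at 3 h and from -0.12 to -0.42 at 24 h, since genes at a fold of exactly 1 are among them. Of the named genes called at 2-fold, 5 values fell short of 2-fold with centring and 64 fell short of 4-fold. No sign of these could change, because the largest median subtracted, -0.58 at root 3 h, is smaller in size than a 2-fold call. No paired analysis was possible because the columns are comparisons and carry no values per library, and for the same reason no replicate could be left out. The precision of each fold is limited by an unknown depth.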
